A study of Mus musculus with 22 samples.

Results

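The genes described here are 9 targets of the hypoxia-inducible factors (HIF) that lie outside glycolysis and blood vessel growth: Ankrd37, Ndrg1, Kdm3a, Bhlhe40, Ak4 (listed in older names as Ak3l1), Stc2, Zfp395, Car12 and Ccng2. They were taken by gene name from the biological spots of the arrays, where 13 of 55681 probes name one of them. Of these 9 genes, 7 were bright enough to enter the comparison, among 16578 genes in all, and Ak4 and Ccng2 were too dim. The set was proposed with the oxygen comparison of these same arrays in view, so its differences between the oxygen groups are given as a description without a test.

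Epididymal white adipose tissue, the fat pad beside the epididymis, was taken from male C57BL/6JOlaHsd mice, a substrain of the common inbred black mouse. In the hypoxia group, 10 mice breathed 12% oxygen for 6 hours, and in the normoxia group 12 mice stayed at 20.9% oxygen for the same time in the same calorimetry cages. All mice arrived aged 10 weeks, were housed singly, ate a purified low-fat feed (10% of its energy as fat) over the first 3 weeks and a high-fat feed (40%) over the next 6, and were fasted before the exposure. The submitters' text speaks of high against low fat at one point but ties no mouse to either, and diet is in no model here. Individual Cy5-labelled RNA was hybridised to 2-colour Agilent arrays beside a Cy3-labelled pool of all samples, so every value below is the log2 ratio of 1 mouse to that pool and levels of different genes cannot be set against each other. The series text calls the mice of a group biological replicates.

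HIF is a transcription factor made of an oxygen-sensitive alpha subunit (Hif1a or Epas1) and a stable partner, Arnt. With ample oxygen, prolyl hydroxylases mark the alpha subunit for destruction. When oxygen falls the subunit persists, enters the nucleus and binds hypoxia response elements, short DNA stretches with the core ACGTG or GCGTG, beside the genes it turns on. Fat tissue in obesity is often described as poorly oxygenated, and HIF is studied there for its part in inflammation, fibrosis and lipid handling. The genes described here act at different points of the cell: Ankrd37 and Ndrg1 are cytoplasmic or nuclear stress proteins, Bhlhe40, Kdm3a and Zfp395 regulate transcription, Stc2 is secreted, Car12 sits in the plasma membrane, Ak4 in mitochondria, and Ccng2 is an unusual cyclin that restrains growth.

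The promoters of these genes were read for the core of the hypoxia response element, because this is the sequence through which HIF is known to act on its targets. RefSeq windows from 250 bases before to 50 bases after the start site (GRCm38.p6) were available for 6 of the 9 genes: Ankrd37, Kdm3a, Ak4, Stc2, Car12 and Ccng2. Searched on both strands, ACGTG lay in 2 of these 6 genes and in 21.8% of 27025 genes, and GCGTG in 5 of the 6 and in 35.2%. Either core was present in 5 of the 6, against 46.7% of all genes and 35 of 39 other HIF targets. The stretches below show the copies in Ankrd37 and, to compare, 1 copy each in Kdm3a, Ak4, Stc2 and Ccng2; the core stands in capitals, in the direction of the gene.

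Ankrd37, chr8:46000074-46000100, first base of the core at position -241: cccagcagtACGTGcctagctcggctc
Ankrd37, chr8:45999985-46000014, position -152: ttcactgcgcacGCGTGctgcggccgcctg
Ankrd37, chr8:45999839-45999868, position -6: cagtgtttgggtACGTGaggccgcagcggg
Kdm3a, chr6:71632927-71632956, position -27: ccgggaggctgtGCGTGtcttgtgagagag
Ak4, chr4:101419478-101419507, position -213: cccactctgcccACGTGcggggaccggcag
Stc2, chr11:31370275-31370304, position -231: caccacgcaaacGCGTGgccgccgccaggt
Ccng2, chr5:93267512-93267541, position -49, core on the other strand: tccgcgcgcagtCACGCgccccgccccttg

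Ankrd37 holds both forms of the core within this window, with ACGTG on either side of GCGTG. Its GCGTG overlaps a second copy on the other strand that begins at position -155. The Ak4 copy belongs to CACGTG, the E-box that clock factors and their repressor Bhlhe40 are known to bind, which lay in 8.09% of all genes and in 1 of these 6. Ak4 and Kdm3a have several windows, and a gene counted if any of its windows held the core. The Ak4 copy shown lies only in the last window of Ak4, and -213 counts from the start site of that window. The Kdm3a copy lies only in the first window of Kdm3a. The Car12 window held neither core. A match is a string of letters and not a measured binding site, and its absence from the window says nothing about HIF.

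The arrays hold 62976 spots each and lie on 6 slides. Of the slides, 5 carry 2 hypoxia and 2 normoxia mice each, and slide 2 carries normoxia mice 9 and 10 alone. In Cy5, 15.6% to 76.8% of an array's spots were well above background in hypoxia and 18.3% to 66.3% in normoxia, and the 4 arrays of slide 1 (hypoxia mice 5 and 7, normoxia mice 3 and 5) were the dimmest at 15.6% to 18.9%. All 10 adipocyte markers, among them Adipoq, Lep and Plin1, were well above background on all 22 arrays. Precision rests on the number of arrays and on the spread of each gene between mice. The median standard error of a log2 difference was 0.0981, and that of Ankrd37 was 0.20. In whole tissue, fewer cells of a type and less RNA per cell cannot be told apart.

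Of the 7 genes compared, 6 averaged higher in hypoxia than in normoxia, against 50.4% of all genes tested. None of the 7 passed an adjusted p of 0.05 in limma with Benjamini-Hochberg adjustment, nor did any of the 16578 genes (0%, smallest adjusted p 0.0691), of which 427 (2.58%) were higher and 452 (2.73%) lower at an unadjusted p under 0.05. For 1 of the 7, Ankrd37, and for 0.748% of all genes, each hypoxia mouse with a value exceeded the normoxia mean. No gene of the 7, and 0% of all genes, had every hypoxia mouse above every normoxia mouse. Since the genes were chosen on this contrast, nothing is read from these shares. The median difference of the 7 was 0.06 on the log2 scale, beside 0.001 over all genes tested.

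**Figure D1:**
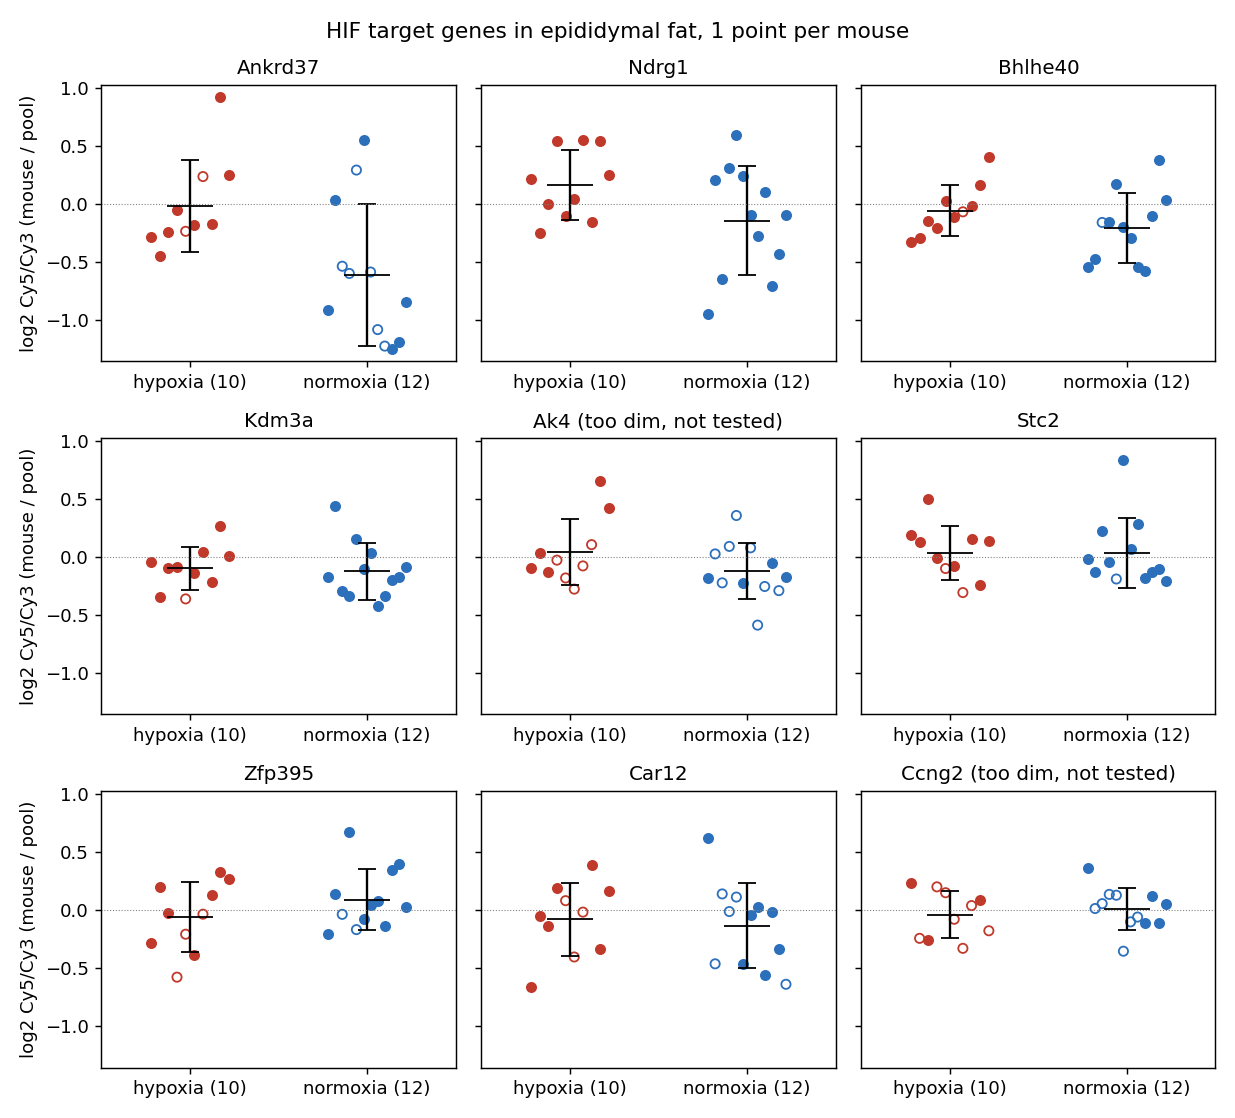
Log2 ratio of Cy5 (the mouse) to Cy3 (the pool of all samples) for each of the 9 genes, with 1 point per mouse, hypoxia (10, red) left and normoxia (12, blue) right; open points were not well above background, and the bars give the mean and SD. Ankrd37 spreads over the widest range and its 10 hypoxia mice all lie above the normoxia mean, while the groups of the other genes overlap over most of their range.

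Ankrd37 encodes a small ankyrin repeat protein known as a HIF-1 target from cultured cells. Its probe lies at chr8:47082404-47082463 (mm9). In hypoxia the lowest mouse stood at -0.45, the median at -0.18 and the highest at 0.92; in normoxia these were -1.25, -0.72 and 0.55. The lower ends of the groups were apart, with 9 of 12 normoxia mice below the lowest hypoxia mouse, while the upper ends overlapped, since only hypoxia mouse 9 exceeded the highest normoxia mouse. The means were -0.02 ± 0.40 in hypoxia (SD, n = 10) and -0.61 ± 0.61 in normoxia (SD, n = 12), a difference of 0.59 ± 0.20 (SE), or 1.51-fold.

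The Ankrd37 difference was above 0 on each of the 5 slides that carry both groups, yet uneven in size. It was 0.12, 0.05 and 0.17 on slides 1, 4 and 5, against 0.63 on slide 6 and 1.36 on slide 3, which carries hypoxia mouse 9. The mean over slides was 0.47, and without hypoxia mouse 9 the difference was 0.49. The transcript was also faint: Cy5 was well above background on 8 of 10 hypoxia arrays and on 6 of 12 normoxia arrays, with median raw signals of 72.2 in hypoxia and 55.3 in normoxia over local backgrounds of 27 to 38 intensity units. The offset of 50 added in background correction draws ratios of faint spots toward 0, so the size of the difference depends on it. Agilent's own log ratio, with another background correction and another dye normalization, put the difference at 1.38 ± 0.46. The cause of this change in size was not tested.

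Ndrg1, N-myc downstream regulated gene 1, encodes a cytoplasmic stress protein known for restraining growth and for lipoprotein receptor traffic. Its probe was well above background on all 22 arrays, with median raw Cy5 signals of 1860 in hypoxia and 1880 in normoxia. Its log2 ratio (probe at chr15:66761057-66761116, mm9) had a lowest value of -0.25, a median of 0.13 and a highest of 0.55 in hypoxia, against -0.95, -0.10 and 0.60 in normoxia. The groups overlapped at the top, where normoxia mouse 5 was highest of all, and parted at the bottom, where 5 of 12 normoxia mice lay below every hypoxia mouse. The difference was 0.31 ± 0.16 (SE), or 1.24-fold, with 8 of 10 hypoxia mice above the normoxia mean, and it ran from -0.14 to 0.60 over slides, above 0 on 4 of 5.

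Both genes also varied widely among the normoxia mice, which all breathed room oxygen. The normoxia SD of Ankrd37 exceeded that of 97.6% of all genes tested, and that of Ndrg1 (0.47) exceeded 95.04%. For Bhlhe40, Kdm3a, Stc2, Zfp395 and Car12 the corresponding shares were 75.3%, 49.2%, 73.7%, 59.7% and 88.4%. The shares set genes of unlike brightness side by side, and the offset draws in the ratios of faint genes most.

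Bhlhe40 (also Dec1) is a basic helix-loop-helix repressor that acts on clock genes and, in cultured preadipocytes, against fat cell differentiation. Its log2 ratio (probe at chr6:108616309-108616368, mm9) was -0.33 in the lowest, -0.09 in the median and 0.40 in the highest hypoxia mouse, against -0.58, -0.18 and 0.38 in normoxia. The groups overlapped except at the bottom, where 4 of 12 normoxia mice lay below the lowest hypoxia mouse. The difference was 0.15 ± 0.11 (SE), with 8 of 10 hypoxia mice above the normoxia mean, and it ran from -0.20 to 0.33 over the 5 slides, above 0 on 3.

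Kdm3a is a histone demethylase of the JmjC type, an enzyme class that needs oxygen for its reaction. Its log2 ratio (probe at chr6:71539112-71539171, mm9) was -0.36, -0.09 and 0.26 in the lowest, median and highest hypoxia mouse, against -0.42, -0.18 and 0.44 in normoxia. The groups overlapped, and the difference was 0.03 ± 0.09 (SE), above 0 on 3 of 5 slides. Zfp395, whose human counterpart is a hypoxia-induced zinc finger factor, was the only 1 of the 7 that averaged lower in hypoxia. Its brightest probe (chr14:66017455-66017514, mm9) gave -0.58, -0.03 and 0.32 in hypoxia, against -0.21, 0.03 and 0.67 in normoxia. The difference was -0.15 ± 0.11 (SE), with 4 of 10 hypoxia mice above the normoxia mean and slide differences of -0.35 to 0.02. No normoxia mouse lay below the lowest hypoxia mouse.

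The other 3 probes of Zfp395 were well above background on at most 6 arrays of either group. Of these, 1 differed by 0.06 ± 0.07 (SE) and was well above background on 2 hypoxia arrays and no normoxia array, and 1 differed by -0.03 ± 0.09 and was so on no hypoxia array and 2 normoxia arrays; neither allows a fold. The other differed by -0.16 ± 0.08. It was not well above background on any hypoxia array and was so on 6 of 12 normoxia arrays. Its mean normoxia signal was 1.04-fold the lowest signal well above background, too close to that limit to give a firm fold.

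Stc2, a secreted glycoprotein known to inhibit the protease PAPP-A and to be induced by cell stress, stood at -0.31, 0.06 and 0.49 in the lowest, median and highest hypoxia mouse, against -0.21, -0.08 and 0.83 in normoxia (probe at chr11:31260136-31260195, mm9). The difference was 0.003 ± 0.11 (SE), with 5 of 10 hypoxia mice above the normoxia mean and slide differences of -0.36 to 0.28. Car12 is a membrane-bound carbonic anhydrase whose active site faces outward, where it turns carbon dioxide into bicarbonate and acid. It stood at -0.66, -0.04 and 0.39 in hypoxia, against -0.64, -0.03 and 0.62 in normoxia (probe at chr9:66614542-66614601, mm9). The difference was 0.06 ± 0.14 (SE), and slide differences ran from -0.68 to 0.54. The groups of both genes overlapped, and the highest mouse of each was a normoxia mouse.

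Ak4, a mitochondrial adenylate kinase, and Ccng2 were not tested. The brighter Ak4 probe (chr4:101139464-101139523, mm9) was well above background on 5 of 10 hypoxia and 4 of 12 normoxia arrays. Its values were -0.28, -0.05 and 0.65 in hypoxia, against -0.59, -0.18 and 0.36 in normoxia, and differed by 0.16 ± 0.11 (SE). The other Ak4 probe differed by -0.02 ± 0.07 (SE). It was well above background on 1 of 10 hypoxia and 0 of 12 normoxia arrays. Ccng2 (chr5:93705131-93705190, mm9) was well above background on 3 of 10 hypoxia and 5 of 12 normoxia arrays, with -0.33, -0.02 and 0.23 in hypoxia, against -0.36, 0.03 and 0.36 in normoxia, a difference of -0.05 ± 0.09 (SE). In both genes the groups overlapped.

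**Figure D2:**
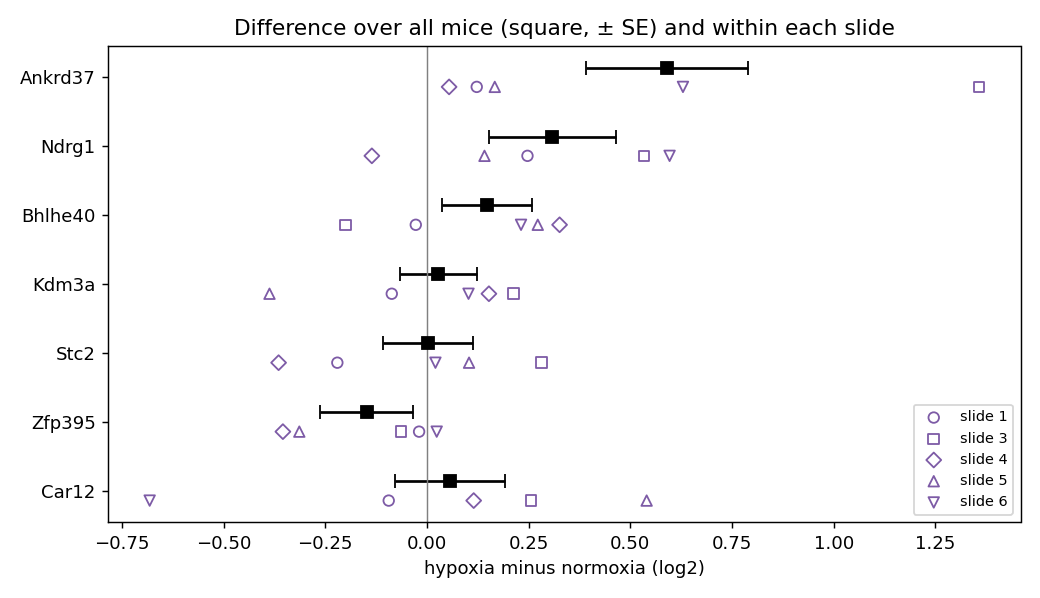
Difference of the group means, hypoxia minus normoxia, on the log2 scale for the 7 genes compared: the black square gives the difference over all mice with its SE, and the open symbols give the difference within each of the 5 slides that carry both groups. Ankrd37 lies right of 0 on all 5 slides with slide 3 farthest out at 1.36, Zfp395 left of 0 on 4 of 5, and the other genes on both sides.

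The mean of the 7 genes, each less its own mean over all mice, was -0.09 in the lowest, 0.07 in the median and 0.33 in the highest hypoxia mouse, against -0.32, -0.10 and 0.23 in normoxia. The groups overlapped, with 2 hypoxia mice above all normoxia mice. Hypoxia mouse 10 was above the overall mean in 7 of 7 genes, and the other hypoxia mice in 3 to 5; the normoxia mice were so in 1 to 5.

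Variation between mice of the same group was not used to choose the genes, so correlations were tested within each group over all 21 pairs (42 tests, permutation of mice with 100000 resamples, two-sided, Benjamini-Hochberg over the 42). Among hypoxia mice 2 of 21 pairs passed. Ankrd37 and Kdm3a gave Pearson's r = 0.867 (permutation p = 0.00058, adjusted p = 0.0244) and Spearman's rho = 0.685 (permutation p = 0.0346, adjusted p = 0.299, n = 10). Without the 2 mice farthest from the Ankrd37 median r was 0.693, and with slide means subtracted it was 0.730. Each slide mean was taken over the mice of both oxygen groups, so normoxia mice also enter this hypoxia r.

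Ndrg1 and Kdm3a gave r = 0.829 (permutation p = 0.00187, adjusted p = 0.0393) and rho = 0.855 (permutation p = 0.00296, adjusted p = 0.124, n = 10). Here r was 0.955 without the 2 mice farthest from the Ndrg1 median and 0.729 with slide means subtracted. Hypoxia mouse 9 was among the 3 highest hypoxia mice in each of Ankrd37, Ndrg1 and Kdm3a. Neither pair passed by rank, and with slide means subtracted no pair passed (0 of 42). Since those slide means mix both oxygen groups, the part of the slides alone in this change was not tested.

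Ankrd37 with Ndrg1 gave r = 0.725 in hypoxia (permutation p = 0.00843, adjusted p = 0.118) and 0.632 in normoxia (permutation p = 0.0280, adjusted p = 0.282), and did not pass in either group. Ankrd37 with Kdm3a gave 0.608 in normoxia (permutation p = 0.0335, adjusted p = 0.282). No pair passed in normoxia. Over all 21 pairs the median r was 0.17 in hypoxia, with 13 above 0, and 0.01 in normoxia, with 11 above 0, and Stc2 ran against Ankrd37 in hypoxia (r = -0.564, adjusted p = 0.496). Whether any r differed between the oxygen groups was not tested.

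The genes most like each of the 3 leading members were ranked by r over 22 arrays with group means subtracted, among 12516 genes with a symbol. Ankrd37 was most like Stard10 (0.934), Defb36 (0.931), Hnf4a (0.926), Plekhb1 (0.920) and Dcdc2a (0.919), with 1 gene in 100 above 0.851. Ndrg1 was most like Bcl2l1 (0.845), Rps21 (0.840), Bicc1 (0.819), Drap1 (0.811) and Paqr6 (0.806), with 1 in 100 above 0.648. Bhlhe40 stood more apart: Gm5914 (0.788), Nanp (0.715), 4833420G17Rik (0.670), Pomk (0.669) and Lrrc8e (0.662), with 1 in 100 above 0.497. These points share the arrays, the pool and their brightness.

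Ankrd37 varied along the main axis of variation between mice. The first principal component of the variation within groups held 29.3% of the variance over 16476 genes, and its r with Ankrd37 was 0.893, larger in size than for 99.1% of genes. For Kdm3a it was 0.602 and for Ndrg1 0.567, larger than for 88.4% and 85.3% of genes. For Bhlhe40, Car12, Stc2 and Zfp395 it was 0.320, 0.147, 0.037 and -0.030. The oxygen groups overlapped along the component, whose score was -0.263, 0.008 and 0.307 in the lowest, median and highest hypoxia mouse, against -0.292, -0.081 and 0.419 in normoxia. As a description, the r of the score with array brightness (the percentage of Cy5 spots above background, as given earlier) was -0.59 over 10 hypoxia arrays and -0.05 over 12 normoxia arrays, and the part of brightness in the Ankrd37 values was not tested.

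The mean of the 5 genes most like Ankrd37 also overlapped between the groups, at -1.02, -0.13 and 1.36 in hypoxia, against -1.37, -0.38 and 1.62 in normoxia, a difference of 0.14. Less 0.49 (the slope within groups) times that mean, the Ankrd37 difference was 0.52, beside 0.59 before this step. The step was chosen after seeing the data, and because the 5 genes were picked for likeness to Ankrd37 on these arrays it shrinks the spread by construction, so nothing is read from the spread that remains.

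**Figure D3:**
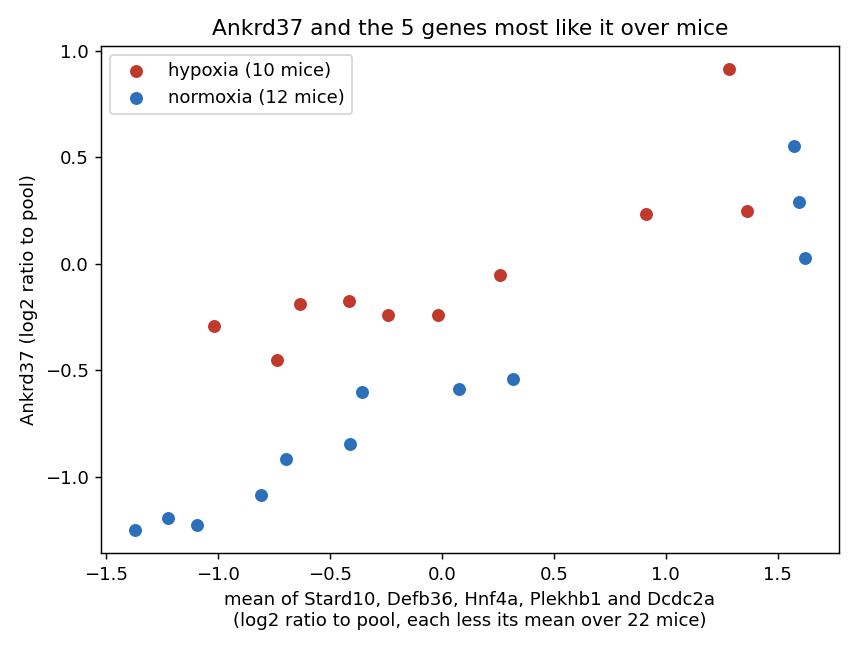
Ankrd37 (vertical axis, log2 ratio to the pool) against the mean of Stard10, Defb36, Hnf4a, Plekhb1 and Dcdc2a (horizontal axis, log2 ratio less each gene's mean over 22 mice), with 10 hypoxia mice in red and 12 normoxia mice in blue. Both groups run from lower left to upper right and overlap on both axes; the 5 genes were picked for their likeness to Ankrd37 on these arrays.

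Markers of other cell types in the pad also differed between the groups, and their part in the values above was not tested. The 4 smooth muscle markers, led by Cnn1, were all higher in hypoxia, with a mean score of -0.40, 0.35 and 0.68 in the lowest, median and highest hypoxia mouse, against -0.94, -0.34 and 0.81 in normoxia. The 3 measured red blood cell markers of 5 were all higher, at -0.33, 0.28 and 1.02, against -0.84, -0.20 and 0.52 in normoxia. The 5 mesothelial markers were all higher, at -0.48, 0.14 and 0.97, against -0.52, -0.13 and 0.36 in normoxia. Of the 7 epididymis and sperm markers 3 were measured, the sperm transcripts Prm1, Prm2 and Smcp, and all averaged lower in hypoxia. Their score was -1.46, -0.67 and 2.03 in hypoxia, against -1.87, 0.21 and 4.08 in normoxia. In both groups they varied widely between mice. The epididymal markers Crisp1, Defb21 and Lcn5 were not tested. Adipocyte, macrophage, endothelial and progenitor scores differed by 0.10, 0.07, 0.09 and 0.02. No marker passed over all genes tested.

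Other HIF targets were measured beside the set. Of 51 in the list, 44 were tested and 29 (65.9%) lay above 0, beside 50.4% of all genes, with a median of 0.06 beside 0.001. None passed over all genes tested. At an unadjusted p under 0.05, 9 of the 44 were higher and 0 lower, beside 2.58% and 2.73% of all genes. The list was written with earlier results of these data known, so nothing is read from these shares. Hilpda, which coats lipid droplets and slows lipolysis, differed by 0.43 ± 0.13 (SE), and the vasodilator peptide Adm by 0.29 ± 0.12. The mitophagy receptor Bnip3 (0.19 ± 0.10), the glucose transporter Slc2a1 (0.18 ± 0.15) and the disulfide oxidase Ero1a (0.09 ± 0.08) lay below them. P4ha1, a collagen prolyl hydroxylase, was at 0.003 ± 0.09, and the blood vessel growth factor Vegfa at -0.06 ± 0.10; the prolyl hydroxylase Egln3 was too dim to test. Of the HIF subunits, Hif1a differed by 0.10 ± 0.10, Epas1 by -0.17 ± 0.12 and Arnt by -0.07 ± 0.12.

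Relatives of the 9 genes were also measured, and none passed over all genes tested in any of the lists. Of the NDRG family, Ndrg2 differed by 0.15 ± 0.13 (SE), Ndrg3 by -0.05 ± 0.10 and Ndrg4 by -0.06 ± 0.11, so that 1 of 3 lay above 0. Of 5 tested adenylate kinases 3 lay above 0, from Ak6 at -0.12 ± 0.08 to Ak1 at 0.10 ± 0.11, with Ak3 at 0.04 ± 0.06 and Ak8 at 0.03 ± 0.14. Of 16 tested JmjC demethylases 8 lay above 0 (median 0.003), with the closest relatives of Kdm3a at -0.10 ± 0.07 (Kdm3b) and 0.17 ± 0.09 (Jmjd1c).

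Of 13 tested clock repressors and outputs, the circuit in which Bhlhe40 acts, 9 lay above 0. The repressor Per1 differed by 0.24 ± 0.12 (SE) and the clock output Dbp by -0.30 ± 0.13, while the paralog Bhlhe41 was too dim to test. Carbonic anhydrases other than Car12 lay above 0 in 2 of 8 cases, with the abundant fat enzyme Car3 at -0.04 ± 0.21 and Car4 at -0.05 ± 0.09. Of the cyclins near Ccng2, 1 of 5 lay above 0: Ccng1 at 0.06 ± 0.11, with Ccni, Ccnd1, Ccnd2 and Ccnd3 at -0.03 ± 0.12, -0.07 ± 0.16, -0.10 ± 0.10 and -0.02 ± 0.08.

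Ccng2 is also a target of the FoxO factors, which fasting activates. Of 16 other FoxO targets tested 11 lay above 0, with a median of 0.08. Of the 16, 3 were higher at an unadjusted p under 0.05 (2.58% of all genes). This list too was written with earlier results known, so nothing is read from its shares. Pdk4, a kinase that shuts off pyruvate oxidation, differed by 0.45 ± 0.18 (SE). Stc2 belongs to the integrated stress response as well, where 8 of 14 tested genes lay above 0, with Trib3 at -0.07 ± 0.13 and Ddit3 at -0.12 ± 0.10. Stc1 was too dim to test. Zfp704, a relative of Zfp395, differed by -0.02 ± 0.09.

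**Figure D4:**
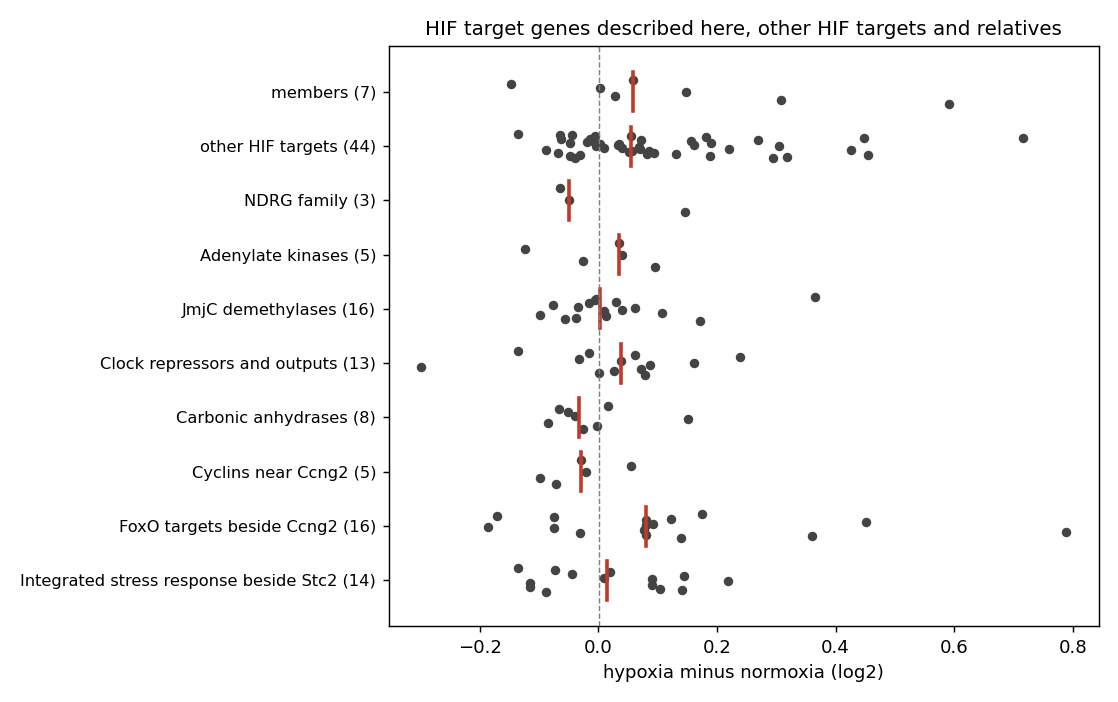
Difference between hypoxia and normoxia (log2, hypoxia minus normoxia) for each tested gene of the set and of the lists around it, with 1 point per gene, the number tested in brackets and the median as a red bar. Medians lie between -0.05 (NDRG family) and 0.08 (FoxO targets), and no point passed over all genes tested.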

How the data were processed

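The deposited scanner files hold mean signals and local median backgrounds as intensity values without normalization, and a log10 ratio of Cy5 over Cy3 that Agilent's software background-subtracted and dye-normalized, per the file headers; Agilent Feature Extraction 10.7.3.1 wrote them, per the submitters' processing notes. The deposited value table holds log2 levels for 33845 spots with equal array medians (6.299), and for its normalization the sources used here name no method.

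Intensities were corrected with normexp (offset 50) and loess within arrays, using limma 3.58.1 (R 4.3.3) and giving control spots no weight. Outlier-flagged spots were dropped and saturated spots kept. Testing required Cy5 well above background on 10 or more arrays and 2 or more unflagged values in each group; the brightest tested probe stood for a gene. Names were updated through RefSeq (GRCm38.p6); probe coordinates are those of the files (mm9), and which exon a probe hits is not stated here. Log2 ratios were fitted on group alone (lmFit, eBayes), adjusted by Benjamini-Hochberg over all 16578 genes, and the code was tested on simulated data. There was no dye swap. The members, lists, named genes and alternatives were chosen with earlier results of these data known. By rule the text names all members, the 5 genes most like each of 3 members, HIF subunits, and stated genes of each list; 1 gene that the rule names is not reported here. The alternatives were other background corrections, scalings, filters, slide blocks, array weights and left-out arrays.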

Additional observations from a re-analysis of the deposited data

Results flagged for a closer look

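Hypoxia mouse 9 stood apart in Ankrd37: its log2 ratio to the pool was 0.92, while the other 9 hypoxia mice lay between -0.45 and 0.25. The gap to the nearest mouse was 0.489 of the whole range of the group, above Dixon's 95% critical value for 10 samples. The check was run in the hypoxia group only. Of 8 measures checked there (7 genes and their mean) 1 stood apart in this way. Chance gives about 1 in 20, or 0.4 of 8. The same mouse was highest in Kdm3a (0.26) and high in Ndrg1 (0.54) among the hypoxia mice. In normoxia, where the check was not run, Stc2 stood at 0.83 in mouse 6 and between -0.21 and 0.28 in the other mice.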

How the results depend on the processing

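The count of genes past an adjusted p of 0.05, 0 in the fit reported, was 1 with Agilent's log ratio (Mt2), 1 with ratios scaled between arrays, 2 and 1 with slide as a fixed and as a random block, 4 with array weights, 2 without the dimmest slide and 2 among the 6458 genes well above background on all arrays. Leaving out 1 mouse gave 0 to 3, the highest without hypoxia mouse 7. With 2 covariates chosen after seeing the data it was 6 (mean of the 5 genes most like Ankrd37) and 9 (first principal component). Ankrd37 was among both, at 0.52 ± 0.09 and 0.57 ± 0.10 (SE), which is no independent support, since the gene was chosen on this contrast. Agilent's log ratio moved Ankrd37 to 1.38 ± 0.46 and Zfp395 to -0.53 ± 0.35; the cause was not tested. Over 38 alternatives, Ankrd37, Ndrg1, Bhlhe40 and Zfp395 kept their direction, at 0.47 to 1.38, 0.22 to 0.40, 0.07 to 0.26 and -0.53 to -0.07. Car12 (-0.01 to 0.22), Kdm3a (-0.03 to 0.08) and Stc2 (-0.13 to 0.08) did not. The alternatives reuse the same mice, and some give the same value. The genes were also chosen on this contrast, so a kept direction is no independent support. The count of genes above 0 was 4 to 6 of 7. The 2 correlations past the threshold became 0 with slide means (over both oxygen groups) subtracted, 1 with Agilent's log ratio and 1 with Cy5 alone. Replicate numbers do not pair the mice: same-numbered mice correlated at -0.471 to 0.25, over 0.1 in 2 of 10 pairs, and 0 of 10 correlated best with their own number. With the replicate block 0 genes passed, and Ankrd37 differed by 0.51 ± 0.23. Low signal limits Ankrd37, Car12, Ak4 and Ccng2 most, which were well above background on fewer than 15 of 22 arrays.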

Other observations

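In the lists around the 9 genes, the widest difference, picked here after its value was seen, belonged to Depp1, a FoxO target known from fasting. Depp1 differed by 0.79 ± 0.16 (SE; adjusted p = 0.128 in limma over all genes), with 10 of 10 hypoxia mice above the normoxia mean and slide differences of 0.29 to 1.44. It did not pass the threshold. Among the JmjC demethylases the widest difference was that of Phf8, at 0.37 ± 0.10 (SE; adjusted p = 0.499 in limma), with 9 of 10 hypoxia mice above the normoxia mean.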
